A study of Caenorhabditis elegans with 14 samples.

Results

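The change from the first day of adulthood to later adulthood was examined in animals that lack mir-60, an intestinal microRNA gene, and that also carry spe-9(hc88), a temperature-sensitive allele that makes them sterile. Of the 7 libraries of the series, 4 were used, made from 8 of its 14 sequencing runs, with 2 runs merged by the authors in each library. The Day 0 group holds 2 libraries of untreated mir-60;spe-9 young adults, taken 68 hours after egg preparation. The later group holds 1 library from Day 7 and 1 from Day 10, both of mir-60;spe-9 animals that had been kept from Day 0 on plates with 5 mM paraquat and 325 µM 5-fluorodeoxyuridine (FUDR). All animals were grown at 23.5 °C on E. coli OP50, and RNA was taken from whole bodies.

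Paraquat is a herbicide that produces superoxide inside cells, and FUDR blocks DNA synthesis, so that no progeny develop. The later libraries therefore differ from Day 0 in age, in paraquat and in FUDR together, and these cannot be told apart. Day 7 and Day 10 are single libraries of different days, so their spread includes any change between the days and is not a strict replicate error. The study set its later sampling times by the survival of the cohorts. Its survival assays on paraquat put median survival near Day 7 for spe-9 controls and near Day 10 for mir-60;spe-9. At Day 7 the strains were therefore at different points of their survival, as were the mutant Day 7 and Day 10 libraries. A control strain with the spe-9 allele alone, with 2 libraries at Day 0 and 1 at Day 7 under the same treatment, serves below only to show where the mutant differs.

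C. elegans adults no longer moult, and the body wall muscle, neurons and intestine that they enter adulthood with are not replaced. The intestine digests, stores fat, produces yolk for the oocytes and carries much of the defence against microbes and toxins. Heat shock proteins, metallothioneins, ferritin and the enzymes that conjugate and export toxins form the main inducible defences against damaged proteins, metals and reactive oxygen. MicroRNAs lower the amount of protein made from the messenger RNAs they pair with.

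Values are FPKM, sequenced fragments scaled to transcript length and to the mapped reads of the library, summed over all transcript entries of a gene symbol. Changes are differences of log2(FPKM + 0.5), later group minus Day 0, which understate the change of weakly expressed genes. A gene was tested if its longest entry has at least 200 bases, its mean over the 4 libraries is at least 1 FPKM and none of the 4 values is exactly 0. Of 41560 symbols, 12809 passed the length and level limits, and 479 of these were then left out for a value of 0. The Day 7 library holds 395 of those values of 0, against 39 and 44 in the Day 0 libraries and 149 at Day 10. For 40 of the genes listed at 0 at Day 7, the other 3 libraries were each above 100 FPKM, among them the ribosomal protein gene rpl-7A and the histone variant gene htz-1, so these were taken as failed estimates. No read counts were used, but the steps of 1 read among short entries showed relative depths of 1.07 for the second Day 0 library, 1.26 for Day 7 and 1.1 for Day 10, with the first Day 0 library as 1. The mir-60 entry is listed at 0 in all 7 libraries, spe-9 included, and a preparation for messenger RNA does not capture a microRNA, so it does not check the labels.

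Of the 12330 genes tested, 2131 (17.3%) rose and 1914 (15.5%) fell by more than 2-fold with an adjusted p under 0.05 (limma with a variance trend, two-sided, Benjamini-Hochberg adjustment over all genes tested). Among them, 241 rose and 221 fell by more than 8-fold, and 46 rose and 60 fell by more than 32-fold. Every count for a gene list below has to be set beside the shares of all genes, 17.3% higher and 15.5% lower. The median change of all genes was -0.04, and 0.11 when the libraries were scaled to a common median. Both later libraries lay outside the range of both Day 0 libraries for 79.5% of genes. The Day 0 libraries are described as biological replicates, and p-values measure the spread between these samples only. Errors given with changes are standard errors of the fit, with n = 2 against 2, and an exact permutation test of a single gene could not go below p = 0.333 with 2 libraries against 2. In bulk RNA of whole animals, fewer cells of a type and less RNA per cell cannot be told apart.

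**Figure D1:**
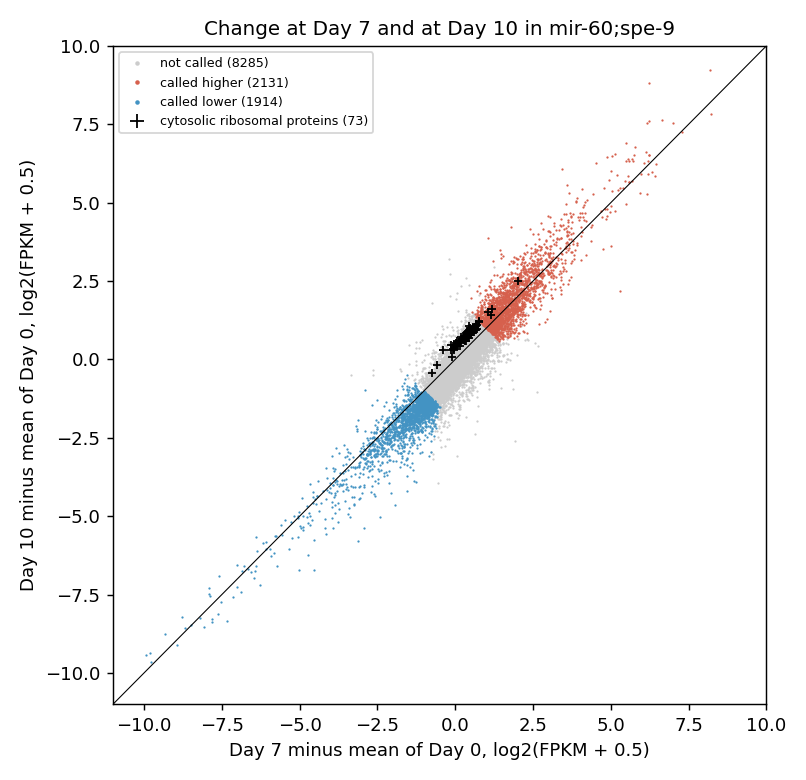
Change from the Day 0 mean at Day 7 (horizontal axis) against that at Day 10 (vertical axis), both as differences of log2(FPKM + 0.5), for 12330 genes in mir-60;spe-9. Points are genes, with 2131 called higher, 1914 called lower and 8285 not called, and crosses are 73 cytosolic ribosomal protein genes. Points below the diagonal line, 8716 of them, were lower at Day 10 than at Day 7, while all 73 crosses lie above it.

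Small heat shock proteins of the hsp-16 group, which hold unfolding proteins in solution and are barely expressed without stress, rose by more than 50-fold in each case. All 5 members tested were called, with a median change of 6.37, where 17.3% of all genes rose. hsp-16.2, at chromosome V, 1804440 to 1804923 on the WS220 assembly that the deposited values use, had 7.11 and 5.46 FPKM at Day 0, 421 at Day 7 and 409 at Day 10. The later libraries thus stood far above both Day 0 libraries and differed little from each other, and the change was 5.95 ± 0.18 on the log2 scale (limma, adjusted p = 6.45e-06), or 61.7-fold. hsp-16.41 went from 5.66 and 9.31 to 402 and 405 FPKM in the same order of libraries. hsp-16.48 and hsp-16.49 are near-identical copies, as hsp-16.11 is of hsp-16.1, so their reads cannot be assigned to 1 gene, and hsp-16.48 and hsp-16.11 rose by 82.6-fold and 82.8-fold. In spe-9, hsp-16.2 had 9.62 and 9.72 FPKM at Day 0 and 717 at Day 7.

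Other chaperones were mixed, with 6 of 25 higher (24%) and 2 lower (8%), beside 17.3% and 15.5% of all genes. The list median was 0.39. hsp-70, a stress-inducible cytosolic chaperone gene at chromosome I, 9320404 to 9322473, had 0.365 and 0.606 FPKM at Day 0, 151 at Day 7 and 149 at Day 10, a rise of 7.27 ± 0.25 on the log2 scale (limma, adjusted p = 8.54e-06). The later values of hsp-70 were nearly equal, while both Day 0 values were under 1 FPKM. F44E5.4 and F44E5.5, a further near-identical pair of heat-inducible hsp70 genes, both rose by 5.62. hsp-12.6, a small heat shock protein gene known as a target of the DAF-16 transcription factor, went from 8.56 and 5.51 to 106 and 82.0 FPKM, a rise of 3.67 ± 0.27. daf-21, the gene of the cytosolic chaperone HSP90, rose by 1.66 ± 0.21. By contrast hsp-12.1 and hsp-25, small heat shock proteins that are also present without stress, fell, with changes of -3.28 ± 0.38 and -1.31 ± 0.18.

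Chaperones of the mitochondria and the endoplasmic reticulum did not move together. Of 20 tested, 2 rose and 2 fell (10% each), fewer than the 17.3% and 15.5% of all genes. hsp-6, the mitochondrial HSP70 gene, had 322 and 371 FPKM at Day 0, 710.1 at Day 7 and 1384 at Day 10, and its change was 1.52 ± 0.30 on the log2 scale (limma, adjusted p = 0.00652). hsp-60, its partner chaperonin in the same compartment, had 207 and 234 FPKM at Day 0, 112.12 at Day 7 and 71.6 at Day 10, with a change of -1.29 ± 0.23 on the log2 scale (limma, adjusted p = 0.0041). For both genes the Day 10 library was the farther from Day 0. crt-1, the gene of the calcium-binding chaperone calreticulin of the endoplasmic reticulum, rose by 1.38 ± 0.18, and dve-1, which encodes a homeodomain factor of the mitochondrial unfolded protein response, fell with a change of -1.09 ± 0.27.

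Genes of metal binding and iron storage rose as well. mtl-1, one of the metallothionein genes, at chromosome V, 6691468 to 6691815, had 21.9 and 33.99 FPKM at Day 0, 1091 at Day 7 and 1235 at Day 10, a rise of 5.39 ± 0.22 on the log2 scale (limma, adjusted p = 1.88e-05). mtl-2, the intestinal metallothionein gene, is too short for the test at 192 bases and had 695 and 485 FPKM at Day 0, 1512 at Day 7 and 1768 at Day 10, with no overlap between the groups. ftn-1, the intestinal ferritin gene, which stores iron, is at chromosome V, 7546526 to 7547544 and had 10.2 and 10.97 FPKM at Day 0, 737 at Day 7 and 844 at Day 10, a 71.2-fold rise with a change of 6.15 ± 0.15 on the log2 scale (limma, adjusted p = 4.07e-06). ftn-1 was the only one called of the 6 tested genes of iron and heme handling, though all 6 had a change above 0, with a median of 0.86. Under median centring and under quantile normalization 2 were called higher. ftn-2, the second ferritin gene, went from 403 and 367 to 415 and 403 FPKM, with a change of 0.09 ± 0.14. cdr-1, a cadmium-responsive gene, stayed under the level limit, at most 0.673 FPKM, and was not tested.

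Most enzymes that remove superoxide and peroxide were not called. Of the 8 superoxide dismutase and catalase genes, 2 rose (25%, beside 17.3% of all genes), none was called lower, and the list median was 0.04. sod-4, the extracellular superoxide dismutase gene, had 21.5 and 18.6 FPKM at Day 0, 118 at Day 7 and 129 at Day 10, a rise of 2.60 ± 0.17 on the log2 scale (limma, adjusted p = 0.000113). sod-5, a cytosolic form, was near the level limit, from 0.313 and 0.704 to 1.39 and 2.86 FPKM, with a rise of 1.35 ± 0.36. For the mitochondrial sod-2 and sod-3 the changes were 0.05 ± 0.14 and 0.15 ± 0.27, and for the catalase genes ctl-1, ctl-2 and ctl-3 they were 0.01 ± 0.18, -0.73 ± 0.16 and 0.03 ± 0.18, none called. sod-1, the main cytosolic form, had 199.6 and 203 FPKM at Day 0, 138 at Day 7 and 146 at Day 10, lower in both later libraries but by less than 2-fold, at -0.50 ± 0.14.

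Among peroxiredoxins, thioredoxins and glutathione enzymes, 6 of 24 rose (25%) and 4 fell (16.7%), beside 17.3% and 15.5% of all genes. trx-2, a mitochondrial thioredoxin gene, rose by 1.598 ± 0.19 and trxr-1, a thioredoxin reductase gene, by 1.17 ± 0.14. msra-1, which repairs oxidized methionine, moved the other way, with 777 and 609 FPKM at Day 0, 62.8 at Day 7 and 88.0 at Day 10 and a change of -3.20 ± 0.21 on the log2 scale (limma, adjusted p = 0.000106). The glutathione peroxidase genes were split, with gpx-5, gpx-7 and gpx-3 among the falls and gpx-8 among the rises.

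Glutathione S-transferases, which attach glutathione to toxins and to oxidized lipids, gave 13 of 42 higher and 7 lower, and so a share of 31% higher against 17.3% of all genes. gst-24 had 8.65 and 7.15 FPKM at Day 0, 173 at Day 7 and 114 at Day 10, a 16.9-fold rise with a change of 4.08 ± 0.25 on the log2 scale (limma, adjusted p = 7.75e-05). gst-15, next in size, went from 3.40 and 5.22 to 45.3 and 38.2 FPKM. In the other direction gst-27 went from 73.0 and 59.5 to 5.98 and 5.68 FPKM and gst-26 from 22.8 and 20.4 to 1.66 and 0.843 FPKM, with changes of -3.39 ± 0.22 and -3.70 ± 0.32. The family therefore held members changed by more than 8-fold in both directions.

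Over both later days the enzymes and pumps of the other detoxification steps were called lower more often than higher, but this order depended on the day. UDP-glucuronosyltransferases, which attach sugars, gave 9 of 45 higher and 16 lower, cytochrome P450 genes, which oxidize substrates, gave 4 of 41 higher and 12 lower, and P-glycoproteins with other ABC transporters, which export products, gave 5 of 33 higher and 10 lower, where 17.3% of all genes rose and 15.5% fell. Without the Day 10 library the counts were 12 higher and 11 lower for UDP-glucuronosyltransferases, 11 and 8 for ABC transporters and 6 and 10 for cytochrome P450 genes, and without the Day 7 library they were 7 and 19, 1 and 12, and 5 and 15. ugt-18 and ugt-44 stood at the ends of their family, with changes of 3.02 ± 0.42 and -4.78 ± 0.48. cyp-33C8 rose from 21.8 and 26.9 to 171 and 128 FPKM, while cyp-35A2, of a xenobiotic-inducible subfamily, fell from 26.6 and 25.2 to 1.97 and 0.493 FPKM. mrp-2, a multidrug resistance protein gene, rose by 2.23 ± 0.30, and pmp-5, a peroxisomal membrane protein gene of the same class, fell with a change of -5.12 ± 0.29. All 33 ABC transporter genes tested were lower at Day 10 than at Day 7, beside 70.7% of all genes tested.

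Secreted antimicrobial proteins were split between very large rises and very large falls. Of 10 lysozyme genes, 2 rose and 6 fell. lys-7, an intestinal lysozyme gene of the immune response at chromosome V, 3481478 to 3482596, had 53.1 and 45.9 FPKM at Day 0, 1019 at Day 7 and 938 at Day 10, a 19.6-fold rise with a change of 4.29 ± 0.15 on the log2 scale (limma, adjusted p = 8.07e-06). ilys-5, of the invertebrate lysozyme type and at chromosome X, 6533512 to 6536740, moved in the opposite direction, with 1221 and 898 FPKM at Day 0, 1.87 at Day 7 and 3.05 at Day 10 and a change of -8.50 ± 0.25 on the log2 scale (limma, adjusted p = 5.89e-06). lys-4, lys-2 and lys-1 also fell, with changes of -6.80 ± 0.28, -3.96 ± 0.23 and -3.08 ± 0.27. lys-3 rose by 1.17 ± 0.37.

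For antimicrobial peptides and saposin-like proteins the counts were 7 of 47 higher and 17 lower, with a median of -0.48. abf-2, a defensin-like peptide gene expressed in the pharynx, at chromosome I, 3885634 to 3885891, had 18.2 and 12.7 FPKM at Day 0, 1383 at Day 7 and 1191 at Day 10, an 81.8-fold rise with a change of 6.35 ± 0.20 on the log2 scale (limma, adjusted p = 6.46e-06). Its neighbour abf-1 rose from 1.82 and 1.71 to 24.3 and 43.9 FPKM. The saposin-like spp-17, the most abundant of the list in the first Day 0 library, went from 2815 and 2078 to 44.3 and 48.5 FPKM, a change of -5.69 ± 0.18 on the log2 scale (limma, adjusted p = 6.46e-06). spp-4 and spp-2 fell as well, with changes of -5.23 ± 0.25 and -3.82 ± 0.30. C-type lectins, carbohydrate-binding proteins many of which respond to bacteria, gave 14 of 59 higher (23.7%) and 18 lower (30.5%), beside 17.3% and 15.5% of all genes. Their changes ran from 3.18 for clec-265 to -5.45 for clec-50.

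Lysosomal proteases digest proteins in the intestine and in lysosomes, which the vacuolar ATPase acidifies, and the list held genes of both. Of 32 tested, 2 rose and 12 fell, with a median of -0.61, and 7 more were left out for a value of 0. asp-1, an intestinal aspartyl protease gene at chromosome V, 19049533 to 19050723, had 1064 and 902 FPKM at Day 0, 5531 at Day 7 and 10221 at Day 10, a rise of 2.94 ± 0.30 on the log2 scale (limma, adjusted p = 0.000499). Among the tested genes of the list asp-1 was the most abundant on both later days, and its Day 10 value was the higher. asp-13 fell from 123 and 107 to 0.403 and 0.251 FPKM and the cathepsin B-like genes cpr-1 and cpr-4 from 311 and 291 to 3.65 and 4.70 FPKM and from 539 and 386 to 59.4 and 10.4 FPKM. asp-2 fell with a change of -2.75 ± 0.15, while cpz-2, a cathepsin Z gene, rose by 2.05 ± 0.15. The falls include 3 subunit genes of the vacuolar ATPase, vha-12, vha-5 and vha-13, with changes of -1.61 ± 0.16, -1.54 ± 0.25 and -1.19 ± 0.14. asp-6 is listed at 0 in both later libraries after more than 900 FPKM at Day 0 and was not tested. In spe-9 it had 6344 FPKM at Day 7, so the values of 0 may be failed estimates. Its later level in the mutant cannot be read from these FPKM, and the gene counts in the study's supplement were not used. Astacin metalloproteases and trypsin-like proteases gave 4 of 15 higher and 4 lower (26.7% each), beside 17.3% and 15.5% of all genes.

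**Figure D2:**
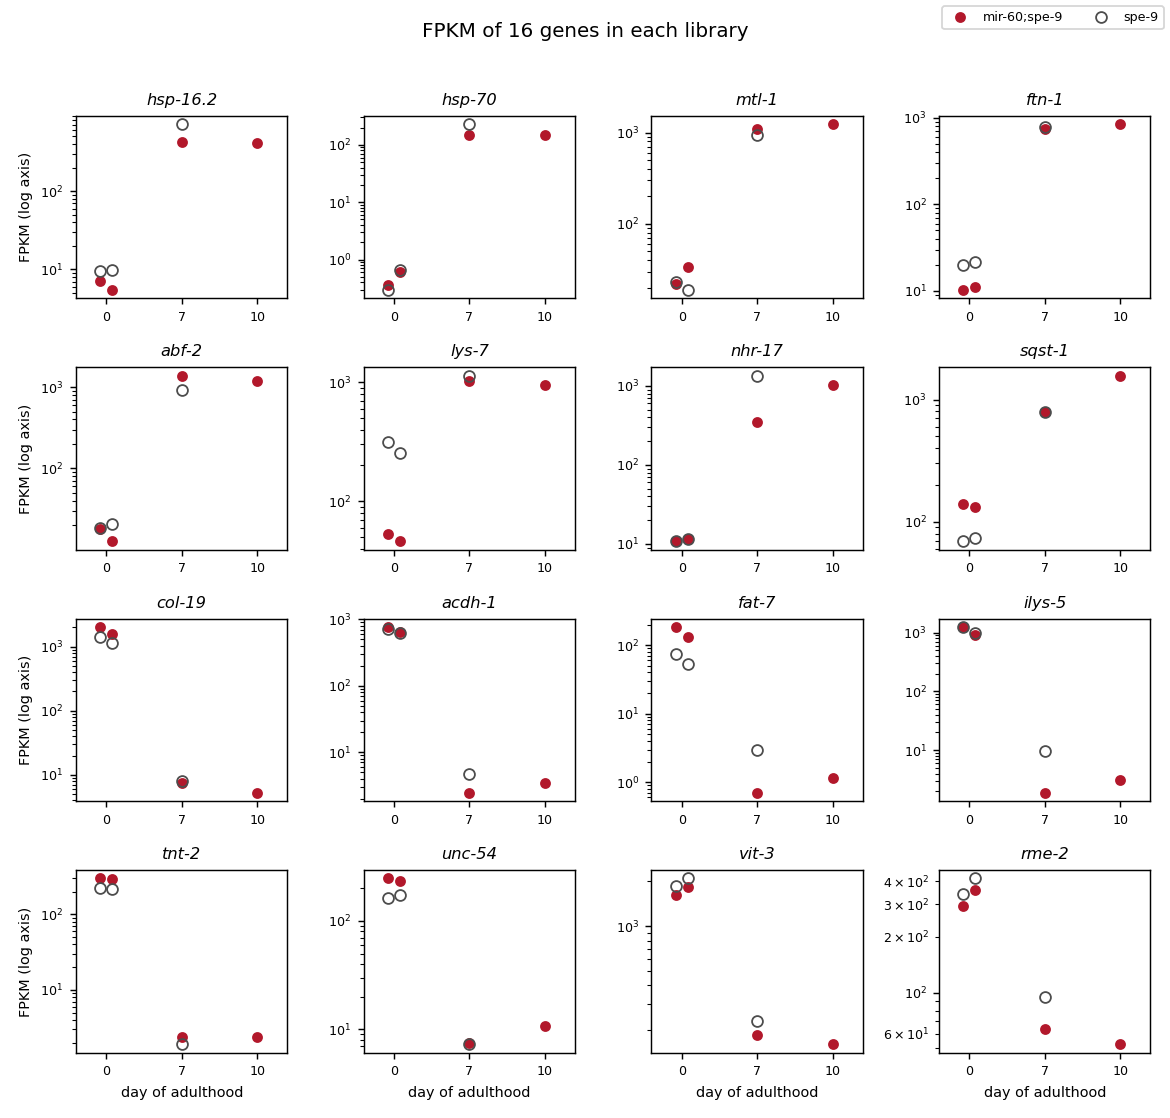
FPKM (log axis) of 16 genes by day of adulthood, with filled points for the mir-60;spe-9 libraries and open points for the spe-9 libraries, 1 point per library. In the upper panels the later points lie above the Day 0 points (hsp-16.2 from 7.11 and 5.46 at Day 0 to 421 and 409), and in the lower panels they lie below (col-19 from 2025 and 1584 to 7.41 and 5.23).

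Cuticle collagens gave most of the largest falls among the genes tested. These secreted proteins form the worm's exoskeleton, and each moult and the adult stage have their own set. Of 79 tested, 59 fell and 7 rose, a share of 74.7% lower against 15.5% of all genes, with a median change of -2.64. col-19, a collagen gene of the adult cuticle at chromosome X, 421725 to 422647, had 2025 and 1584 FPKM at Day 0, 7.41 at Day 7 and 5.23 at Day 10, a change of -8.06 ± 0.21 on the log2 scale (limma, adjusted p = 4.07e-06). col-20, at chromosome II, 4869772 to 4870766, had 2958 and 2551 FPKM at Day 0, 2.60 at Day 7 and 2.91 at Day 10, the largest fall of the named genes at 845-fold. Of the 12 largest falls among genes with a gene-class symbol, 11 were collagens, namely col-20, col-93, col-124, col-80, col-101, col-94, col-92, col-98, col-178, col-19 and col-179. In both later libraries all 11 were under 10 FPKM. Summed over the whole list, collagen transcripts amounted to 39839 and 32828 FPKM at Day 0, 1263 at Day 7 and 1451 at Day 10.

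A few collagens went the other way. col-130 had 1.12 and 0.387 FPKM at Day 0, 89.5 at Day 7 and 534 at Day 10, so that the later libraries differed 6-fold from each other, and its change was 7.52 ± 0.77 on the log2 scale (limma, adjusted p = 0.000517). dpy-5, a gene of body shape that acts in larval cuticle, rose from 0.441 and 0.118 to 8.61 and 11.2 FPKM. Other cuticle and moulting proteins gave 1 of 16 higher and 9 lower, with falls of noah-2 and mlt-8, genes needed for moulting, from 33.4 and 19.01 to 2.66 and 2.69 FPKM and from 25.05 and 12.9 to 2.2990 and 1.80 FPKM. Among the hedgehog-related and patched-related genes, many of them expressed in the hypodermis, the counts were 6 of 32 higher (18.8%) and 9 lower (28.1%). The shares of all genes were 17.3% and 15.5%. From this list grd-5 fell from 565 and 547 to 1.80 and 3.01 FPKM.

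Genes of body wall muscle fell almost throughout. Of 26 tested, 22 fell and none was called higher, with a median of -1.91. tnt-2, a troponin T gene at chromosome X, 8721712 to 8723490, had 298 and 289.9 FPKM at Day 0, 2.38 at Day 7 and 2.36 at Day 10, a 103-fold fall with a change of -6.68 ± 0.18 on the log2 scale (limma, adjusted p = 4.07e-06). unc-54, the major muscle myosin heavy chain gene, at chromosome I, 14856170 to 14863439, had 247 and 235 FPKM at Day 0, 7.42 at Day 7 and 10.7 at Day 10, a change of -4.68 ± 0.21 on the log2 scale (limma, adjusted p = 2.37e-05). unc-27, which encodes troponin I, fell from 660.2 and 603 to 18.5 and 19.4 FPKM and unc-52, the basement membrane perlecan that anchors muscle, from 77.9 and 57.7 to 4.72 and 4.93 FPKM. The summed level of the list was 12029 and 10853 FPKM at Day 0, 2083 at Day 7 and 2676 at Day 10. hlh-1, a transcription factor gene that marks the muscle lineage, stood at 5.35 and 3.11 FPKM at Day 0, 3.77 at Day 7 and 4.44 at Day 10, with overlapping groups and no call. Muscle genes of the pharynx, myo-1 and myo-2, had changes of -0.46 ± 0.25 and 0.10 ± 0.25, and none of the 11 pharynx genes tested was called.

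Intestine markers fell too, with 9 of 13 called lower and a median of -1.68, further at Day 10 (-2.11) than at Day 7 (-1.21). act-5, the actin gene of intestinal microvilli at chromosome III, 13604453 to 13605965, had 172 and 160.0 FPKM at Day 0, 24.0 at Day 7 and 13.6 at Day 10, a change of -3.16 ± 0.27 on the log2 scale (limma, adjusted p = 0.000258). pept-1, the peptide transporter gene, fell from 9.40 and 7.21 to 2.15 and 0.523 FPKM, and the intermediate filament genes ifc-2 and ifd-2 fell with changes of -2.17 ± 0.27 and -2.07 ± 0.30. elt-2, the transcription factor gene that defines the intestine, had 7.11 and 4.86 FPKM at Day 0, 2.52 at Day 7 and 1.41 at Day 10. The summed level of the whole intestine list was nearly level, 2299.6 and 2033 FPKM at Day 0, 2057 at Day 7 and 2231 at Day 10, with mtl-2 higher, as given above, and cpr-6, a cathepsin B-like gene, lower, from 1008 and 985 to 258 and 231 FPKM. Of hypodermis markers 5 of 10 fell. Neuron markers gave 3 of 16 higher (18.8%) and 1 lower (6.25%), beside 17.3% and 15.5% of all genes, with a median of 0.12. Which part of the other results moves with the lower muscle genes and the 9 lower intestine markers was not tested.

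Yolk proteins are made in the adult intestine and taken up by oocytes. Of their 6 vitellogenin genes 3 could be tested, and these 3 fell. vit-3, at chromosome X, 3567445 to 3572527, had 1621 and 1827 FPKM at Day 0, 184 at Day 7 and 160.4 at Day 10, a change of -3.32 ± 0.15 on the log2 scale (limma, adjusted p = 2.42e-05), and vit-4 and vit-1 had changes of -2.93 ± 0.15 and -1.94 ± 0.15. vit-2 is listed at 0 in every library, vit-6 at 0 in both Day 0 libraries and vit-5 at 0 in the second Day 0 library against 3072 FPKM in the first, so these 3 were not tested. At Day 7 and Day 10 vit-5 had 1623 and 1399.9 FPKM and vit-6 had 1675 and 1358. The sum over all 6 was 6936 and 4428 FPKM at Day 0, 3892 at Day 7 and 3287 at Day 10, a smaller difference than that of the 3 tested, and the Day 0 sums miss the genes listed at 0. The 6 genes are near copies of each other in groups, and reads shared between copies could have been assigned in different ways. In spe-9, vit-4 is listed at 0 in both Day 0 libraries and at 331 FPKM at Day 7. The falls of the 3 tested genes therefore do not show that yolk transcripts fell as a whole.

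Of 27 oocyte and eggshell genes, 18 fell (66.7%, beside 15.5% of all genes), with a median of -1.43. rme-2, the yolk receptor gene of oocytes, at chromosome IV, 5470020 to 5473079, had 293 and 359 FPKM at Day 0, 63.3 at Day 7 and 52.6 at Day 10, a change of -2.48 ± 0.17 on the log2 scale (limma, adjusted p = 0.000133). chs-1, the chitin synthase gene of the eggshell, fell with a change of -2.64 ± 0.28, egg-1, which is needed in the egg for fertilization, went from 321 and 391 to 90.2 and 61.4 FPKM, and lin-41, a regulator of oocyte growth, from 78.3 and 102 to 28.6 and 13.4 FPKM. perm-4, an eggshell permeability gene, was the exception, with 1827 and 1914 FPKM at Day 0, 5232 at Day 7 and 4335 at Day 10 and a rise of 1.35 ± 0.18 on the log2 scale (limma, adjusted p = 0.0015). All 27 tested genes of this list were lower at Day 10 than at Day 7, beside 70.7% of all genes tested.

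Genes of germline identity and P granules gave 1 of 31 higher and 6 lower, and genes of DNA replication and mitosis 0 of 39 higher and 8 lower. The shares lower, 19.4% and 20.5%, were not far from the 15.5% of all genes. Without the Day 7 library the numbers lower were 13 and 13, and without the Day 10 library 6 and 5. car-1 and cgh-1, RNA-binding proteins of germline granules, fell from 1044 and 1212 to 219.7 and 224 FPKM and from 891 and 1085 to 252 and 151 FPKM. prg-1, the Piwi protein of the piRNA pathway, rose by 1.101 ± 0.15. mcm-3 and mcm-2, subunits of the replicative helicase, fell with changes of -1.36 ± 0.16 and -1.19 ± 0.17.

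Transcripts of sperm genes were low in the Day 0 libraries and lower still later. Of 28 major sperm protein genes, whose product drives sperm movement, 26 fell and none was called higher, with a median of -1.86. The summed level was 233 and 151 FPKM at Day 0, 55.4 at Day 7 and 35.5 at Day 10. These genes are near copies of each other, so the members are not independent. msp-152, with the largest change, went from 9.42 and 5.61 to 0.684 and 0.398 FPKM. From Day 0 to Day 7 the median change of these genes was 0.22 in spe-9 and -1.68 in the mutant. Summed Day 0 levels in spe-9 were 43.3 and 41.7 FPKM, and none of the differences between strains was called. Other sperm genes gave 3 of 22 higher and 11 lower, with falls of ssp-9 and nspd-3 from 15.7 and 10.3 to 3.69 and 1.41 FPKM and from 24.3 and 14.7 to 6.53 and 2.28 FPKM, and rises of spe-41 and spe-4.

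Fat metabolism showed some of the largest single changes. In fatty acid activation and beta-oxidation 15 of 45 genes fell and 3 rose. acdh-1, an acyl-CoA dehydrogenase gene of the propionate breakdown shunt, at chromosome I, 6497455 to 6499466, had 769 and 636 FPKM at Day 0, 2.43 at Day 7 and 3.38 at Day 10, a 208-fold fall with a change of -7.70 ± 0.21 on the log2 scale (limma, adjusted p = 4.07e-06). nhr-68, a nuclear receptor gene known to activate acdh-1, fell as well, from 101 and 65.8 to 8.17 and 3.38 FPKM. acdh-2, a close relative, fell from 65.3 and 46.1 to 2.08 and 3.29 FPKM. acs-2, the acyl-CoA synthetase gene that is induced by fasting, rose by 1.67 ± 0.21.

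The desaturases that make oleic acid differed in direction. fat-7, at chromosome V, 7151428 to 7153112, had 184 and 132 FPKM at Day 0, 0.699 at Day 7 and 1.15 at Day 10, a 111-fold fall with a change of -6.80 ± 0.29 on the log2 scale (limma, adjusted p = 1.88e-05). fat-6, which carries out the same reaction, had 450.1 and 489 FPKM at Day 0, 965 at Day 7 and 1933 at Day 10, a rise of 1.54 ± 0.31 on the log2 scale (limma, adjusted p = 0.00682). fat-5, which acts on palmitic acid, fell with a change of -2.35 ± 0.22, and fat-3, which acts in the path to polyunsaturated fats, rose by 1.42 ± 0.14. Over desaturases and elongases the counts were 4 of 15 higher and 6 lower. Lipases and fatty acid binding proteins gave 3 of 20 higher (15%) and 6 lower (30%), beside 17.3% and 15.5% of all genes. lipl-5, a lysosomal lipase gene, fell from 181 and 115 to 7.70 and 6.10 FPKM and lbp-1, a fatty acid binding protein gene, rose from 543 and 399 to 1510.2 and 1353 FPKM.

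In central carbon metabolism 4 of 35 genes rose (11.4%) and 9 fell (25.7%), beside 17.3% and 15.5% of all genes. aldo-1, a fructose bisphosphate aldolase gene, had 125 and 123 FPKM at Day 0, 594 at Day 7 and 842 at Day 10, a rise of 2.51 ± 0.19 on the log2 scale (limma, adjusted p = 0.000182). cts-1, citrate synthase, rose by 1.98 ± 0.20, ldh-1, lactate dehydrogenase, by 1.78 ± 0.17, and gpd-3, a glyceraldehyde phosphate dehydrogenase, by 1.605 ± 0.25. mdh-2, the mitochondrial malate dehydrogenase, and pck-1, which starts gluconeogenesis, fell from 551 and 582 to 200.3 and 145 FPKM and from 82.2 and 76.2 to 20.3 and 22.96 FPKM. Neighbouring steps of the citric acid cycle thus moved apart. Of the trehalose genes both synthases, tps-1 and tps-2, rose by 1.58 ± 0.24 and 1.42 ± 0.25, and 3 trehalases, tre-1, tre-2 and tre-3, fell with changes of -1.33 ± 0.30, -1.15 ± 0.26 and -1.24 ± 0.21. Among the 8 tested the other 3 were not called.

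Genes of the respiratory chain and ATP synthase changed little, with 1 of 30 higher and 2 lower and a median of -0.06, which turns positive when the libraries are scaled to a common median, a scaling under which none of the 30 was called. The called genes were cyc-2.1, a cytochrome c gene, which rose by 1.22 ± 0.23, and cyc-2.2 and atp-2, which fell with changes of -1.11 ± 0.38 and -1.11 ± 0.14. Among proteasome subunits none of 32 was called, and changes lay between -0.82 and 0.77. Mitochondrial ribosomal proteins gave 2 of 61 higher (3.28%) and 4 lower (6.56%), fewer than the 17.3% and 15.5% of all genes. From this list mrps-11 rose from 163 and 149.5 to 485 and 656 FPKM.

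Cytosolic ribosomal protein genes were higher later by a small amount that nearly all of them shared. The median of 73 genes was 0.59, against -0.04 for all genes, and 69 had a change above 0, but only 5 passed the 2-fold threshold, with 15 called without the Day 7 library and 4 without the Day 10 library. rpl-24.2 had 151 and 132 FPKM at Day 0, 568 at Day 7 and 801 at Day 10, a rise of 2.25 ± 0.19 on the log2 scale (limma, adjusted p = 0.000274). rpl-25.1 and rps-27 followed with 1.41 ± 0.19 and 1.28 ± 0.24. At Day 10 all 73 were above Day 7, when 3614 of the 12330 genes were. Their summed level was 407360.0 and 395033 FPKM at Day 0, 454846 at Day 7 and 601896 at Day 10. Under quantile normalization the list median was 0.04, so the rise of the list as a whole depends on how the libraries are scaled.

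Autophagy genes were mostly not called, 3 of 24 being higher and none lower. sqst-1, the p62 homologue that carries ubiquitinated cargo to autophagosomes, at chromosome IV, 12034260 to 12036698, had 139 and 132 FPKM at Day 0, 798 at Day 7 and 1570.0 at Day 10, a rise of 3.04 ± 0.30 on the log2 scale (limma, adjusted p = 0.000442). atg-16.2 rose by 2.28 ± 0.19 and bec-1, the Beclin homologue, by 1.15 ± 0.15. Both later values of sqst-1 were above both Day 0 values, and the Day 10 value was the higher.

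Of 53 neuropeptide precursor genes 12 (22.6%) rose, against 17.3% of all genes, and none was called lower, with a median of 0.65. nlp-2 had 4.55 and 5.46 FPKM at Day 0, 24.4 at Day 7 and 49.7 at Day 10, flp-15 had 47.2 and 37.9 FPKM at Day 0, 186 at Day 7 and 191 at Day 10, and their changes were 2.69 ± 0.36 and 2.14 ± 0.17. Insulin-like peptide genes, ligands of the DAF-2 receptor that controls growth and lifespan, gave 10 of 29 higher and 2 lower, a share of 34.5% higher. ins-10 rose from 9.12 and 5.47 to 56.4 and 103.88 FPKM and ins-22 from 11.5 and 12.26 to 71.1 and 82.4 FPKM, and ins-2 and ins-27 fell. Genes named downstream of DAF-16, the transcription factor that insulin signalling holds out of the nucleus, gave 3 of 14 higher and 2 lower. With both later libraries in the fit these shares, 21.4% and 14.3%, lie near the 17.3% and 15.5% of all genes. The number lower depended on the library, with more called without the Day 7 library and fewer without the Day 10 library. The closeness of the share lower to that of all genes therefore does not hold for each day. The median change of the list was 0.41 at Day 7 and 0.14 at Day 10. The largest rises of this list were those of mtl-1 and hsp-12.6, described above.

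Nuclear hormone receptors, a family much enlarged in nematodes, gave 48 of 163 higher and 12 lower, a share of 29.4% higher against 17.3% of all genes, and a median of 0.54. nhr-17, at chromosome X, 12664171 to 12667780, had 10.9 and 11.6 FPKM at Day 0, 347 at Day 7 and 1025 at Day 10, a rise of 5.67 ± 0.45 on the log2 scale (limma, adjusted p = 0.000208), the largest of the family. Both later values were far above both Day 0 values, and the Day 10 value was the higher. nhr-61 rose from 10.11 and 8.40 to 154 and 212 FPKM. nhr-114, known for its part in the response to dietary tryptophan, fell from 34.5 and 31.8 to 3.98 and 2.92 FPKM. F-box and Skp1-related proteins, adaptors of ubiquitin ligases, gave 72 of 244 higher (29.5%) and 41 lower (16.8%), the latter near the 15.5% of all genes.

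Transthyretin-related proteins, small secreted proteins of nematodes, gave 8 of 46 higher (17.4%) and 14 lower (30.4%), beside 17.3% and 15.5% of all genes. Their summed level was 10029 and 9404 FPKM at Day 0, 23053 at Day 7 and 29082 at Day 10. ttr-51 had 1413 and 1261 FPKM at Day 0, 9504 at Day 7 and 13433 at Day 10, a rise of 3.08 ± 0.22 on the log2 scale (limma, adjusted p = 0.000157), and ttr-2 rose from 1158 and 1118 to 4667 and 5955 FPKM. Acyltransferase-like genes of the oac class gave 0 of 6 higher and 3 lower.

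**Figure D3:**
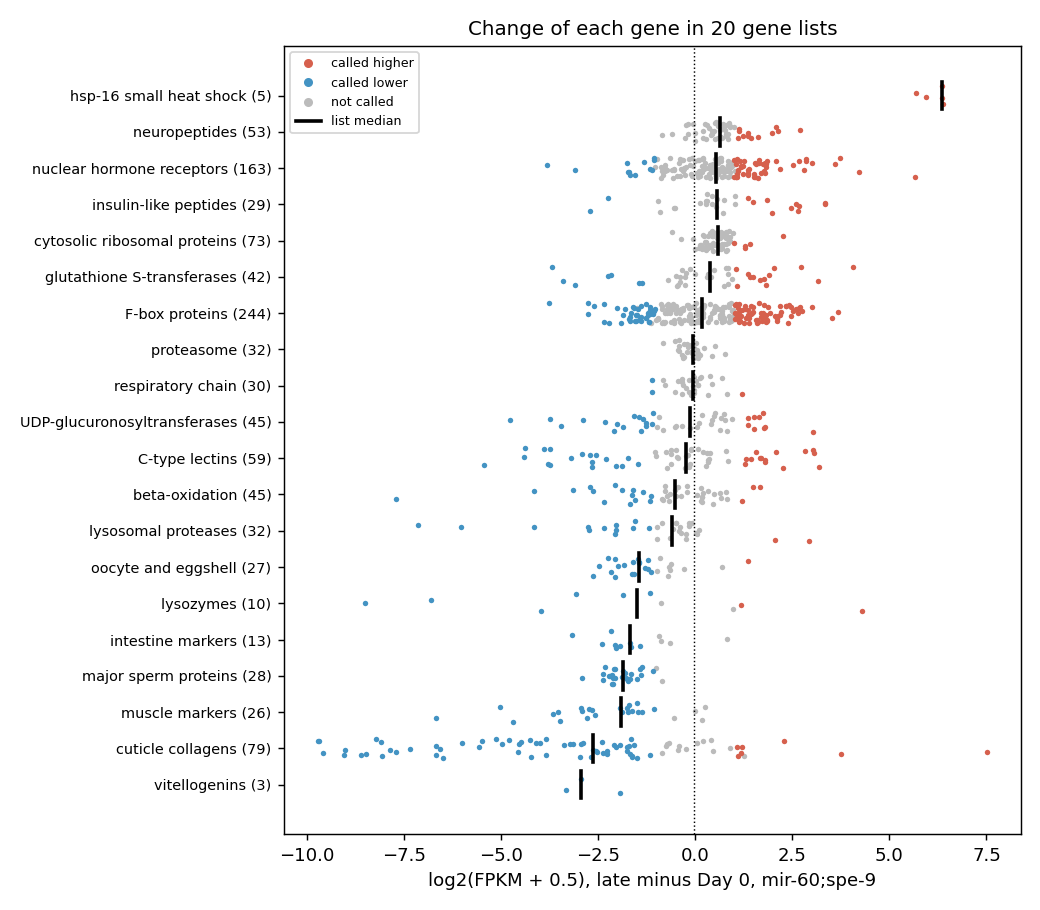
Change of log2(FPKM + 0.5) from Day 0 to the later group in mir-60;spe-9 for each tested gene of 20 lists, with the number of genes in brackets. Red points were called higher, blue points lower and grey points neither, the black bar is the list median and the dotted line the median of all genes, -0.04. The hsp-16 genes lie near 6 and the collagens reach from 7.52 down to -9.72.

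The largest rise of a gene with a class symbol was that of rpr-1, annotated as a noncoding RNA in Ensembl and known as the RNA of ribonuclease P, at chromosome I, 13463944 to 13464196, with 6.64 and 10.99 FPKM at Day 0, 2645 at Day 7 and 5425 at Day 10 and a change of 8.71 ± 0.36 on the log2 scale (limma, adjusted p = 1.88e-05). Core histone genes were also among the largest rises. his-43 had 0.0492 and 0.0409 FPKM at Day 0, 68.9 at Day 7 and 101 at Day 10 and his-14 had 9.36 and 8.78 FPKM at Day 0, 717 at Day 7 and 1863 at Day 10. Of 54 histone genes tested, a family taken after its values were seen, 45 rose and 1 fell, with a median of 2.55. his-24, a linker histone gene, was the one that fell, from 609.6 and 427 to 169.5 and 130.4 FPKM. Many core histone genes are near copies, so these counts are not of independent genes. Neither core histone messages of dividing cells nor the RNA of ribonuclease P normally carries a long poly(A) tail, and the libraries were made with a kit for messenger RNA. dao-6, of a class named for high expression in dauer larvae or ageing adults, had 17.1 and 24.8 FPKM at Day 0, 2107 at Day 7 and 4221 at Day 10, a rise of 7.14 ± 0.33 on the log2 scale (limma, adjusted p = 2.62e-05).

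Noncoding transcripts were also counted after values were seen, by their biotype in the Ensembl annotation of a later assembly, matched by symbol. Of 62 tested genes of biotype ncRNA 21 rose and 3 fell, and of 38 long intergenic noncoding RNAs 14 rose and 2 fell, where 17.3% of all genes rose and 15.5% fell. One ncRNA among the falls, F26E4.14, owes its value to an entry under 200 bases, and its longer entry alone gave -0.46 (limma, adjusted p = 0.251). tts-1, an abundant long noncoding RNA described in long-lived worms, had 679 and 550.0 FPKM at Day 0, 8149 at Day 7 and 9733 at Day 10, a rise of 3.86 ± 0.19 on the log2 scale (limma, adjusted p = 3.37e-05). linc-16 rose from 6.54 and 4.98 to 30.7 and 30.2 FPKM.

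Among genes with sequence names only, C27H5.6 had 0.107 and 0.201 FPKM at Day 0, 193 at Day 7 and 148 at Day 10 and C54F6.15 had 0.263 and 0.739 FPKM at Day 0, 53.4 at Day 7 and 107 at Day 10, changes of 8.02 ± 0.27 and 6.29 ± 0.41. F46F2.3, T13F3.6 and F28H7.3 fell, with changes of -8.31 ± 0.27, -7.84 ± 0.36 and -7.25 ± 0.31. W02A2.8 was called higher by 6.26 ± 0.24, but this came from an additional entry under 200 bases. From its long entry alone, chosen after the values were seen, it had 0.892 and 0.836 FPKM at Day 0, 1.77 at Day 7 and 1.51 at Day 10, and its change was 0.65 (limma, adjusted p = 0.067).

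The later days differed from each other as well. Day 10 was below Day 7 for 8716 of the 12330 genes, and the median changes from Day 0 were 0.07 at Day 7 and -0.16 at Day 10. These values are FPKM without further scaling. The summed FPKM was 1814370 at Day 7 and 2124660 at Day 10, while the median tested gene had 21.2 and 17.2 FPKM. How many genes are lower at Day 10 under another scaling was not counted, so this majority may depend on the scaling. Of the 1914 genes that fell, 1665 were lower at Day 10 than at Day 7, while of the 2131 that rose 1189 were higher at Day 10. The standard deviation of the log2 difference between Day 10 and Day 7 over genes was 0.48, against 0.34 between the Day 0 libraries. With the Day 7 library left out, 2109 genes rose and 2609 fell, and with the Day 10 library left out 2199 rose and 1397 fell. Medians of 8 of the 50 lists differed in sign between the days, each within 0.3 of 0 on both days except for UDP-glucuronosyltransferases, whose median change was 0.24 at Day 7 and -0.56 at Day 10. The falls of collagens (59 and 57 called), muscle (20 and 22) and intestine markers (11 and 9) and the rises of hsp-16 genes (5 and 5) were called with either library alone, but with 1 later library the spread comes from the Day 0 libraries only, so these calls do not test either day against its own replicate error. Counts that leaving out 1 library moved by over 1.5 times, beside those given above, included those lower for the genes followed from Day 0, described below (8 without Day 7), transthyretin-related proteins (9 without Day 10), other sperm genes (6 without Day 10), hedgehog-related genes (5 without Day 10), hypodermis markers (2 without Day 10) and mitochondrial ribosomal proteins (7 without Day 7, when 7 were also higher). Named genes that lost their call without the Day 10 library included cyc-2.1, cyc-2.2, hsp-60, dve-1, sod-5, gpx-3, lys-3, tre-1, tre-2, ced-3 and rabs-5. Those that lost it without the Day 7 library included gpx-8 and lys-3. Neither list is complete.

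Genes that rose were shorter and weaker at Day 0 than genes that fell. The median length of the longest entry was 846 bases for genes that rose, 1126.5 for genes that fell and 1053 for all. The median Day 0 level was 4.43 FPKM for genes that rose and 23.7 for genes that fell, and a choice by change favours this order. By chromosome, the share that rose was lowest on chromosome I, at 12.8% of 2106 genes, and highest on chromosome V, at 21.6% of 2301, and the share that fell was 12.8% on chromosome III and 18.8% on chromosome V. Chromosome V is known for its many genes of expanded families such as receptors and lectins.

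Genes that the study describes as changed in mir-60 mutants at Day 0 were followed into later adulthood. They were chosen with the Day 0 libraries used here, so they are not independent of them. Of 14 tested, 3 rose (21.4%) and 5 fell (35.7%), beside 17.3% and 15.5% of all genes, with a median of -0.89. The aspartyl protease genes asp-17, asp-10 and asp-8 were all far lower later. asp-17 had 46.9 and 41.7 FPKM at Day 0, 7.52 at Day 7 and 5.06 at Day 10, a change of -2.74 ± 0.26 on the log2 scale (limma, adjusted p = 0.000407), asp-10 went from 175 and 128 to 42.8 and 28.7 FPKM and asp-8 from 17.3 and 12.59 to 5.23 and 1.90 FPKM. zip-10, a bZIP transcription factor gene and a candidate target of miR-60, had 41.3 and 34.04 FPKM at Day 0, 24.5 at Day 7 and 17.5 at Day 10, lower in both later libraries but by less than 2-fold, at -0.84 ± 0.24. The P-glycoprotein gene pgp-9 had 22.7 and 23.1 FPKM at Day 0, 24.6 at Day 7 and 19.8 at Day 10, with no change called.

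The spe-9 libraries show how far apart the strains were for some of these genes. amt-4, an ammonium transporter gene, had 26.6 and 26.9 FPKM at Day 0, 10.9 at Day 7 and 23.5 at Day 10 in the mutant and 2.56 and 2.43 FPKM at Day 0 and 8.24 at Day 7 in spe-9. ckb-2, a choline kinase gene, had 27.2 and 26.1 FPKM at Day 0, 15.9 at Day 7 and 11.8 at Day 10 in the mutant and 109 and 106 FPKM at Day 0 and 14.6 at Day 7 in spe-9. lys-7 had 317 and 255 FPKM at Day 0 and 1136 at Day 7 in spe-9, so that its Day 7 levels were close in both strains while its Day 0 levels were not. lys-10 was under the level limit in the mutant, with at most 0.633 FPKM, and had 10.2 and 9.38 FPKM at Day 0 and 0.261 at Day 7 in spe-9. ugt-26 in the mutant was at 10.5 and 8.06 FPKM at Day 0, 5.44 at Day 7 and 3.50 at Day 10, and in spe-9 at 36.4 and 22.97 FPKM at Day 0 and 4.88 at Day 7. The genes were picked for a difference at Day 0 in these libraries, so a smaller difference at Day 7 is no independent evidence of a change. Of them, amt-4 and ckb-2 were called in the test between strains described below.

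**Figure D4:**
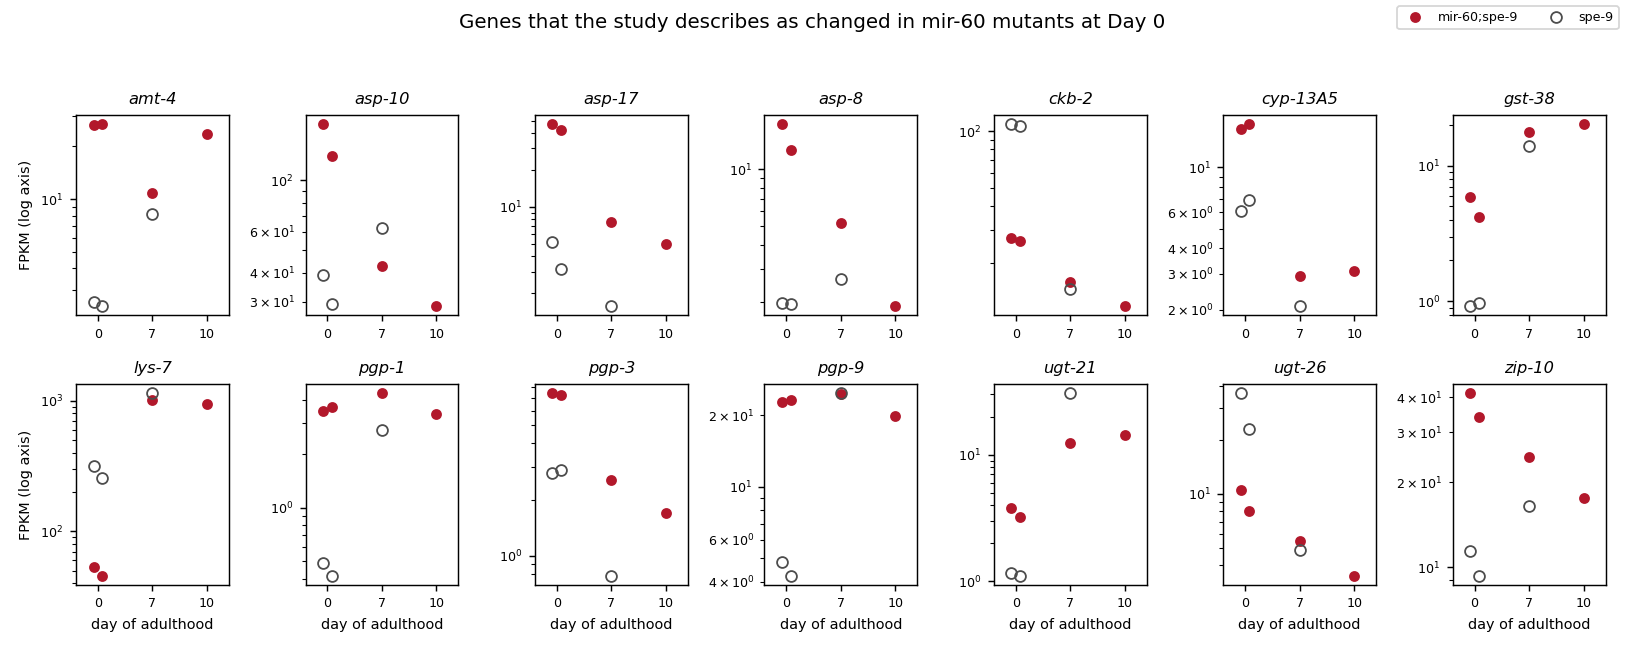
FPKM (log axis) by day of adulthood of the 14 tested genes that the study describes as changed in mir-60 mutants at Day 0, with filled points for mir-60;spe-9 and open points for spe-9, 1 point per library. For ckb-2 the open points stand at 109 and 106 at Day 0 and at 14.6 at Day 7, where the filled points go from 27.2 and 26.1 to 15.9 and 11.8.

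The candidate targets of miR-60 gave 1 of 13 higher and 3 lower, shares of 7.69% and 23.1% beside 17.3% and 15.5% of all genes, with a median of -0.80. The number lower was 6 without the Day 7 library and 1 without the Day 10 library. rme-1, an endocytic recycling gene, had 162 and 186 FPKM at Day 0, 369 at Day 7 and 349 at Day 10, a rise of 1.05 ± 0.14 on the log2 scale (limma, adjusted p = 0.00167), which was not called under quantile normalization. attf-3, the caspase gene ced-3 and the endosomal gene rabs-5 fell, with changes of -1.41 ± 0.27, -1.32 ± 0.27 and -1.12 ± 0.33. All 13 were lower at Day 10 than at Day 7, beside 70.7% of all genes tested. Of the reference genes for qRT-PCR, cdc-42 and pmp-3 were tested and neither was called. cdc-42 had 275 and 296 FPKM at Day 0, 332 at Day 7 and 228 at Day 10 and pmp-3 had 52.1 and 54.5 FPKM at Day 0, 42.5 at Day 7 and 25.2 at Day 10, with changes of -0.05 ± 0.20 and -0.70 ± 0.26, and without the Day 7 library pmp-3 was called lower, at -1.07 (limma, adjusted p = 0.00124). ama-1 is listed at 0 at Day 7 and lay between 69.99 and 76.6 FPKM in the other 3 libraries.

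Whether the change to Day 7 differed between the strains was tested in all 7 libraries, as the change in mir-60;spe-9 minus that in spe-9. Of 12194 genes, 6 (0.0492%) were called higher and 5 (0.041%) lower, and 1387 had an unadjusted p under 0.05 (limma). Each strain has 1 library at Day 7, which was assumed to vary like the Day 0 libraries. Of the 11 genes, hrg-6, npax-4 and F26E4.14 have an additional entry under 200 bases that set the value, and with entries of at least 200 bases only no gene was called. tbb-6, a beta-tubulin gene, had 29.3 and 28.5 FPKM at Day 0, 148 at Day 7 and 208 at Day 10 in the mutant and 6.37 and 7.36 FPKM at Day 0 and 175 at Day 7 in spe-9, a difference of -2.25 ± 0.16 (limma, adjusted p = 0.0499). nhr-17 had 10.8 and 11.5 FPKM at Day 0 and 1350.3 at Day 7 in spe-9, and the difference was -1.97 ± 0.13 (limma, adjusted p = 0.0499). For nhr-17 the mutant value at Day 10 was nearer to the spe-9 value at Day 7 than the mutant value at Day 7 was.

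The same held for nlp-33, Y51A2D.13 and F16B4.4, and the opposite held for tbb-6, amt-4, ckb-2 and C50F7.5, where the mutant value at Day 7 was the nearer. All were selected on the difference at Day 7. nlp-33, an antimicrobial neuropeptide-like gene of the hypodermis, had 492 and 538 FPKM at Day 0, 133 at Day 7 and 19.9 at Day 10 in the mutant and 493 and 445 FPKM at Day 0 and 23.6 at Day 7 in spe-9, a difference of 2.34 ± 0.15 (limma, adjusted p = 0.0499). Y51A2D.13 had 62.4 and 63.6 FPKM at Day 0, 23.7 at Day 7 and 5.99 at Day 10 in the mutant and 90.1 and 86.1 FPKM at Day 0 and 7.87 at Day 7 in spe-9, and F16B4.4 had 2171 and 2267 FPKM at Day 0, 939.8 at Day 7 and 336 at Day 10 and 1739 and 1786 FPKM at Day 0 and 252 at Day 7. The heat shock, metallothionein, ferritin and collagen genes named above were not among the 11, and the difference for hsp-16.2 was -0.17 (limma, adjusted p = 0.812) and for col-19 -0.61 (adjusted p = 0.487). A p above the threshold does not show that the strains changed alike.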

How the data were processed

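RNA from whole animals was sequenced as stranded messenger RNA libraries with single reads of 100 bases. The authors aligned the reads of both runs of a library to WS220 with TopHat2 2.1.0 and Bowtie2 2.1.0 and deposited FPKM per RefSeq transcript from Cufflinks 2.2.1. Here FPKM were summed per gene symbol, a pseudocount of 0.5 was added and log2 values were fitted with limma 3.58.1 in R 4.3.3 (variance trend, Benjamini-Hochberg adjustment), later against Day 0 over 4 libraries and strain against strain over 7. A call needed an adjusted p under 0.05 and a change over 2-fold. Strand was not used in any further step, and overlapping genes may share reads. Depth as counts was not used, so no counting interval is given, and every sample column was matched to a sample (0 unmatched). Groups came from the labels.

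The members and gene lists were chosen with earlier results of these data known. Named genes are the 12 largest rises and 12 largest falls with a gene-class symbol and the 3 largest of each without one, among called genes without overlap of groups and with a mean of at least 10 FPKM in the higher group, then up to 4 called members of each list in each direction, all members of short or fixed lists, and the 5 largest differences between strains in each direction. hlh-1, elt-2, cpr-6, vha-12, vha-5, vha-13, asp-6, rpl-7A, htz-1, his-24, tts-1, linc-16 and F16B4.4 were named after their values were seen. On simulated data with 200 genes changed 4-fold (log2 change of 2), later against Day 0 recovered 94.5%, with 7 false calls among 12330 genes. The difference between strains recovered 87.5%, with 11 false calls among 12194. The simulated noise was independent and took its spread from the fit itself, also for the single later libraries, and 4045 genes were called in the real data. These rates thus check the calculation and do not show how many real calls are right. The alternatives were other pseudocounts, filters, scalings and thresholds, 1 transcript per gene, no variance trend and leaving out each library in turn.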

Additional observations from a re-analysis of the deposited data

Results flagged for a closer look

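In 11 genes the change from Day 0 to Day 7 differed between mir-60;spe-9 and spe-9 by the test of the difference itself (limma, adjusted p = 0.0499 for each except F26E4.14, at 0.00299). Differences are the log2 change in mir-60;spe-9 minus that in spe-9. The difference was 5.23 for hrg-6, 2.87 for C50F7.5, 2.34 for nlp-33, 2.11 for ckb-2, 2.01 for Y51A2D.13 and 1.57 for F16B4.4, and it was -1.97 for nhr-17, -2.25 for tbb-6, -2.46 for npax-4, -2.81 for amt-4 and -12.89 for F26E4.14. C50F7.5 had 16.8 and 15.8 FPKM at Day 0, 45.5 at Day 7 and 11.8 at Day 10 in the mutant and 101 and 92.7 FPKM at Day 0 and 35.96 at Day 7 in spe-9, so that only the Day 7 mutant library was above its Day 0 level. In hrg-6, npax-4 and F26E4.14 an entry under 200 bases set the sum, and from the longer entries alone npax-4 had a difference of -0.18 (limma, adjusted p = 0.876) and F26E4.14 of -0.36 (limma, adjusted p = 0.769), while hrg-6 was not tested. The other 8 had adjusted p = 0.0501 or 0.0526 in that fit, so that 0 genes were called by limma, against 1387 with an unadjusted p under 0.05 in the fit over all entries.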

How the results depend on the processing

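For later against Day 0, 2131 genes rose and 1914 fell. With a mean of at least 10 FPKM, which tests 8008 genes, 1143 rose and 1140 fell, and at a 1.5-fold threshold 2878 fell. Leaving out a Day 0 library gave 1786 to 2023 higher and 1605 to 1689 lower. All other settings stayed within 1.5 times the counts, among them median centring, with 2486 higher and 1566 lower and a median of all genes of 0.11. For 298 named genes, 155 of the 5572 values under 19 alternatives lost a call, 13 gained one and 0 changed sign with a call in either fit. Some values without a call did change sign, 2 under median centring and 2 under quantile normalization among them. In the main fit 282 of the 298 were called, most of them named for that reason, so few reversals could occur. The Day 7 and Day 10 labels carry no replicate number, so no paired analysis was possible for later against Day 0.

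The 6 higher and 5 lower differences between strains were sensitive to nearly every choice. Higher and lower counts were 0 and 1 with a pseudocount of 1, 0 and 2 without a minimum FPKM, 10 and 13 with median centring, 1 and 1 with quantile normalization, 0 and 0 with the top transcript per gene, 0 and 1 without a variance trend, 0 and 1 at an adjusted p under 0.01, 180 and 321 at an unadjusted p under 0.05, 3 and 2 with both later days as 1 group, and 0 and 0 with entries of at least 200 bases, an alternative chosen after seeing the data. Without 1 Day 0 library they ranged from 6 to 33 and from 11 to 58. A replicate block gave 82 and 166, from 2 pairs of Day 0 libraries that share only a number (correlation of their deviations 0.355). The cause of these shifts was not tested. The gene counts in the study's supplement were not used, so differences of weakly expressed genes are given without a counting error. Single libraries at Day 7 and Day 10 limit every statement on a day.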

Other observations

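Of 26 antisense RNAs by Ensembl biotype, 6 rose and 2 fell, and of 11 small nucleolar RNAs 2 rose and 2 fell, where 1868 of 10743 protein-coding genes rose and 1679 fell. linc-61 fell from 5.48 and 4.09 FPKM at Day 0 to 0.0886 at Day 7 and 0.613 at Day 10, and linc-43 rose from 0.994 and 0.621 to 2.81 and 7.87. These genes were picked after their values were seen. Reads from a gene and its antisense partner could not be checked for strand here.

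Of the genes that rose, 474 (22.2%) had a mean under 1 FPKM at Day 0, against 644 (5.22%) of all genes tested and 0 of those that fell. The filter fixes this order. A gene under 1 FPKM at Day 0 was tested only if its later mean was high enough to bring the mean over the 4 libraries to 1. Among genes with a Day 0 mean of at least 100 FPKM, 185 rose and 337 fell, of 2048 in all.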
